A study of Mus musculus with 12 samples.

Results

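Adding macrophages (MØ) to a co-culture of pancreatic stellate cells (PSCs) and pancreatic cancer cells (PCC) is the comparison described here, across every gene that the sequencing could measure. It sets PSCs sorted from three-way cultures (PSC, PCC and MØ; 3W-PSCs) against PSCs sorted from two-way cultures (PSC and PCC; 2W-PSCs), with 4 libraries of each, which are 8 of the 12 libraries of the series. The other 4 libraries came from PSCs grown alone (mono-PSCs) and stayed outside the tests. All 39179 genes of the count table were considered, 17876 had at least 1 count in the 8 libraries, and 11513 passed the expression filter and were tested.

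The PSCs were a mouse stellate cell line immortalised with SV40, 1 clone carrying mCherry, and the labels give the strain as C57BL/6. The PCC were a mouse pancreatic cancer cell line carrying EGFP, and the MØ were the mouse line RAW264.7, carrying TagBFP. The cultures were kept for 72 h before the PSCs were sorted on mCherry. The study's supplement adds that the sorted PSCs were negative for EGFP and TagBFP. A 3′ tag method (QuantSeq) counted the RNA of the PSCs. Each culture type was seeded with the same total number of cells. The ratio of the cell types and their numbers after culture are not given in the sources used here, so the addition of MØ and a different number of PSCs or PCC cannot be told apart. In sorted bulk RNA, moreover, fewer cells of one type and less RNA per cell cannot be told apart. The study's methods count replicates as cultures in flasks but do not say whether they were set up independently, so p-values measure the spread between these libraries, part of which may be technical.

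Stellate cells are the vitamin A-storing mesenchymal cells of the pancreas and a source of fibroblasts in pancreatic tumours. In culture and in tumours they take on states that are usually described as myofibroblastic, with α-smooth muscle actin and fibrillar collagen, or as inflammatory, with secreted cytokines, chemokines and acute-phase proteins. Macrophages secrete cytokines such as TNF, IL-1, oncostatin M and type I interferon, which act on fibroblasts through NF-κB and through JAK kinases and STAT factors. NF-κB and STAT3 drive chemokines and acute-phase proteins, and interferon drives antiviral proteins, guanylate-binding GTPases and the machinery of antigen presentation.

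The 2W libraries held 4561817 to 6907711 counts and the 3W libraries 7205488 to 8061367 counts. The 2 ranges did not overlap (two-sided exact permutation, p = 0.0286, as small as 4 against 4 libraries allow; adjusted over 10 library values, p = 0.0477). 2W replicate 2 was the shallowest and stood apart, with a median Spearman correlation of 0.901 with the other 2W libraries, where the 7 others had at least 0.956 within their culture. The summed level of 26 macrophage marker genes was higher in every 3W library than in any 2W library, and is given after the results. Levels are given as CPM (each count divided by the library's total and scaled up to a common size), with totals adjusted by TMM over all 12 libraries, as the mean ± SD of 4 libraries.

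A gene was called where its adjusted p was below 0.05 (edgeR quasi-likelihood test, Benjamini-Hochberg adjustment over all genes tested). By this rule 1230 genes were called, or 10.7% of those tested, of which 660 (5.73%) were higher and 570 (4.95%) lower in 3W-PSCs. Higher and lower genes differed in size and level. Among the genes called higher, 150 (22.7%) rose by more than 2 on the log2 scale and 26 (3.94%) by more than 5. Among those called lower, 44 (7.72%) fell by more than 2 and 2 (0.351%) by more than 5. The median absolute log2 fold change was 1.26 for genes called higher and 0.93 for genes called lower. The genes called higher started low, with a median level of 19.2 CPM in 2W-PSCs that went up to 48.4 CPM. The genes called lower started high, at 80.2 CPM, and went down to 42.6 CPM. Below a mean of 3 CPM, 36 genes were called higher and 15 lower, and above 300 CPM, 23 were called higher and 52 lower. Summed over their genes, the 660 called higher gained 45857 CPM and the 570 called lower decreased by 54171 CPM. Of all genes tested, 1330 (11.6%) had all 4 3W libraries above all 4 2W libraries, and 1119 (9.72%) had them all below. With every library thinned to the total of the shallowest, 1108 genes were called, 1067 of them among the 1230.

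**Figure D1:**
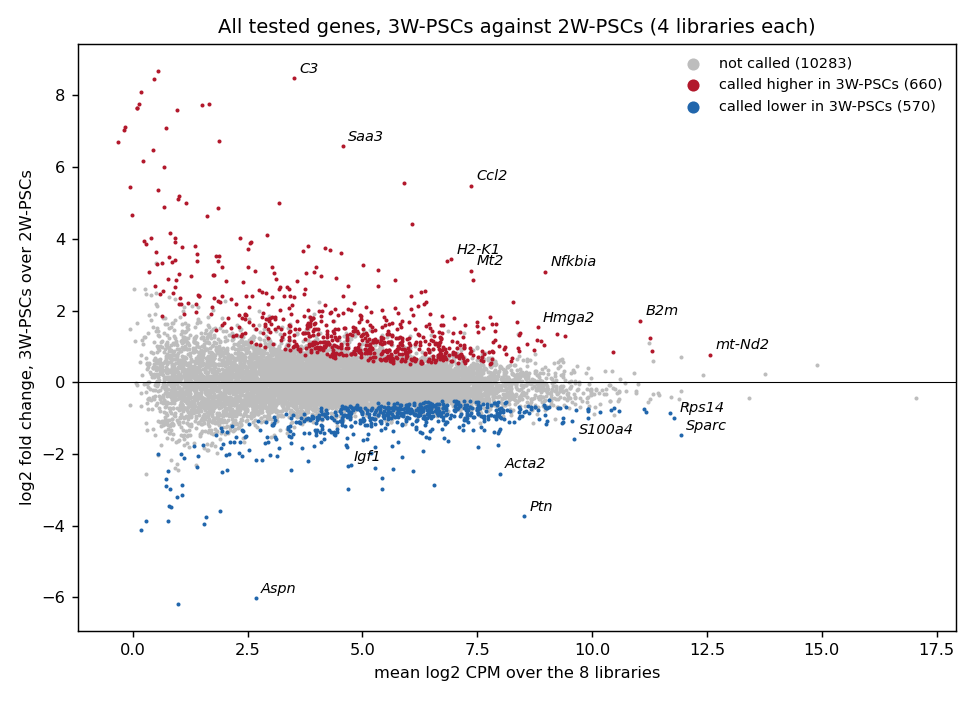
Each dot is a gene tested, with its mean log2 CPM over the 8 libraries on the x axis and its log2 fold change (3W-PSCs over 2W-PSCs, positive where 3W-PSCs were higher) on the y axis. Genes called higher are red (660), genes called lower are blue (570) and the rest are grey. The largest rises lie among genes of low or middle level, such as C3 and Saa3, and abundant genes such as Sparc and Rps14 moved by less.

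Among called genes without overlap between the cultures, the largest gains in CPM fell on genes of different kinds. Lack of overlap was thus a condition of choice here and in the next paragraph. Apart from the mitochondrial genes described with metabolism, *B2m*, the light chain of MHC class I molecules, gained the most and was at 1078, 903, 1057 and 1723 CPM in 2W replicates 1 to 4 and at 3305, 3347, 4447 and 4529 CPM in 3W replicates 1 to 4 (log2 fold change 1.71 ± 0.24, adjusted p = 0.00123; ± is the SE). Every 3W library was above every 2W library for *B2m*. *Nfkbia*, which encodes IκBα, the inhibitor that NF-κB itself induces, was at 189, 76.9, 255 and 211 CPM in the 2W libraries and 1865, 1439, 1804 and 1116 CPM in the 3W libraries (log2 fold change 3.08 ± 0.34, adjusted p = 3.70e-04). The lowest value of *Nfkbia* in each culture came from 2W replicate 2 and 3W replicate 4, and the cultures did not overlap. *Pabpc1*, the cytoplasmic poly(A)-binding protein, rose from 1595 ± 109 to 3749 ± 465 CPM. *Cdkn1a*, the cyclin-dependent kinase inhibitor p21, rose from 439 ± 66.1 to 1072 ± 84.1 CPM.

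Apart from *Rps14*, described with metabolism, the largest losses in CPM among called genes without overlap were those of the following genes. *Sparc*, a collagen-binding matricellular protein, was at 5087, 11208, 4367 and 6287 CPM in the 2W libraries and 2223, 2150, 2571 and 2709 CPM in the 3W libraries (log2 fold change -1.48 ± 0.28, adjusted p = 0.00791). The highest value of *Sparc* was that of 2W replicate 2, and the cultures did not overlap. *Ptn*, the heparin-binding growth factor pleiotrophin, was at 1021, 1677, 1232 and 1542 CPM and 83.2, 83.4, 112 and 131 CPM (log2 fold change -3.74 ± 0.24, adjusted p = 1.62e-05), a separation of all 8 libraries by more than the whole range within either culture. *S100a4*, a calcium-binding protein widely used as a fibroblast marker, fell from 1347 ± 235 to 449.8 ± 50.5 CPM. *Col1a1*, the α1 chain of type I collagen, fell from 3098 ± 477 to 1729 ± 260.0 CPM. *Lgals1*, galectin 1, fell from 2925 ± 667 to 1762 ± 209 CPM, and *S100a6* from 4535 ± 1289 to 2530 ± 337 CPM. *S100a4* shares 44.8% of its 3′ windows (75-base reads starting in the last 500 bases) with the overlapping *Gm42674*, so its counts are uncertain. With 1 library left out of the fit, some of these calls ended: *Col1a1* in 2 of 8 (adjusted p up to 0.073, without 3W replicate 2), *Lgals1* in 6 of 8 (adjusted p up to 0.143, without 3W replicate 2) and *S100a6* in 7 of 8 (adjusted p up to 0.139, without 3W replicate 2).

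**Figure D2:**
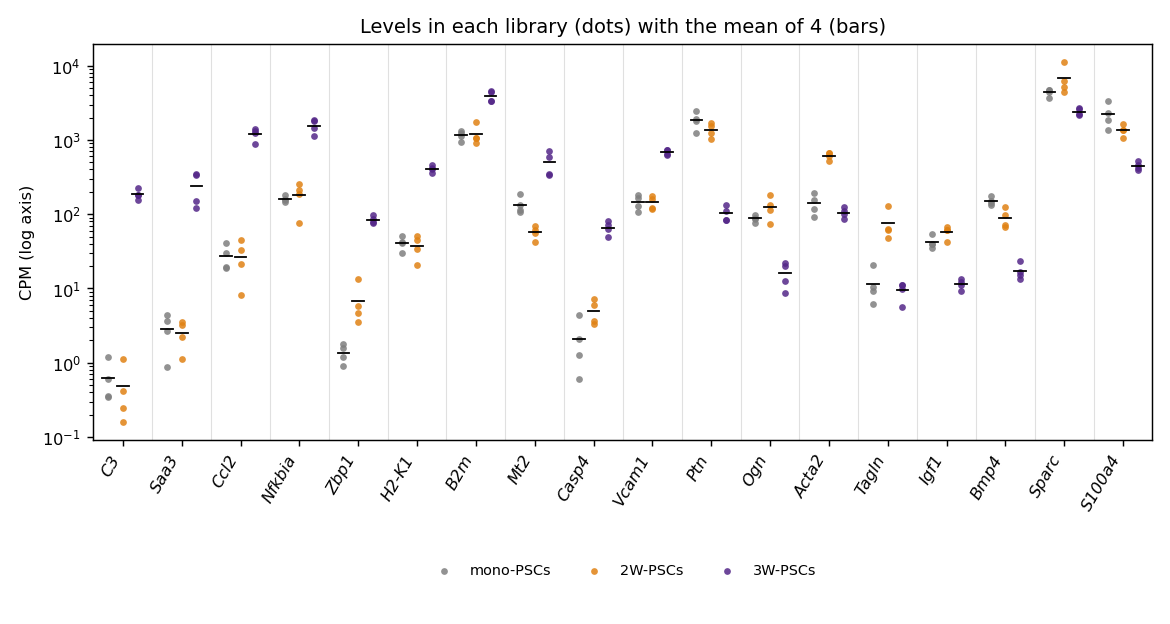
The level of 18 genes in each library (dots, CPM on a log axis) with the mean of the 4 libraries of each culture (bars), for mono-PSCs (grey), 2W-PSCs (orange) and 3W-PSCs (purple). In the first 10 genes all 3W libraries lie above all 2W libraries and in the last 8 all lie below. Lack of overlap was part of the rule that named genes with large changes. Mono-PSCs are shown for reference and were not tested.

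The gene lists used below (46 families or pathways and 5 of cell type markers) are described by counts and by their median log2 fold change, beside 5.73% called higher, 4.95% called lower and a median of 0.0025 over all genes tested. No list was tested as a set.

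**Figure D3:**
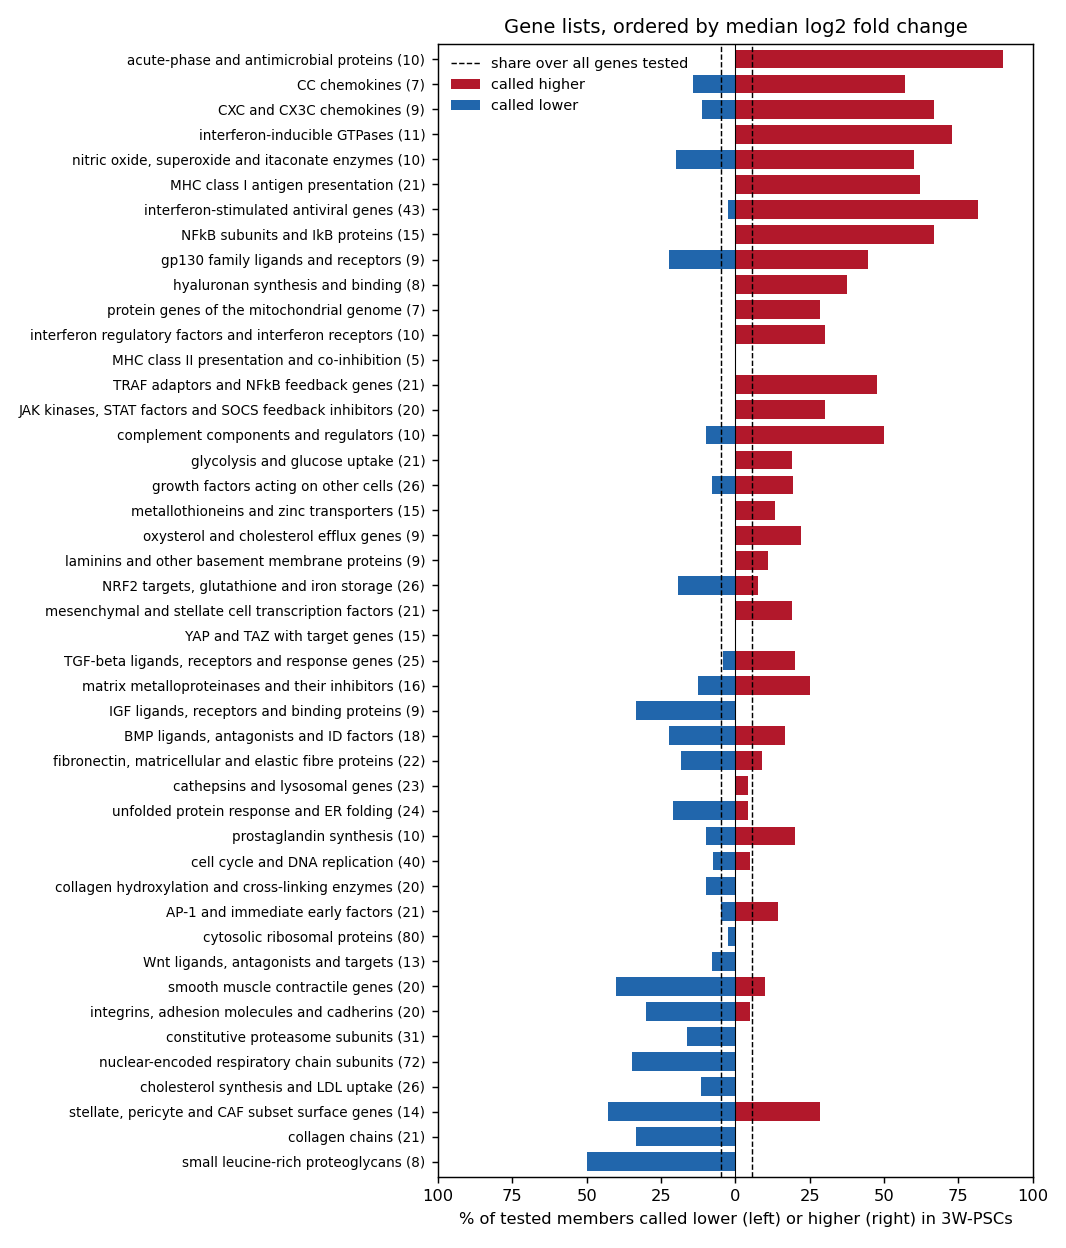
For each of the 45 lists of pathways or families (housekeeping genes and cell type markers are left out), the bars give the share of its tested members called higher (red, to the right) or lower (blue, to the left) in 3W-PSCs, and dashed lines give the shares over all genes tested, 5.73% and 4.95%. The number of tested members stands in brackets, and lists are ordered by their median log2 fold change, from acute-phase proteins at the top to small leucine-rich proteoglycans at the bottom.

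Acute-phase and antimicrobial proteins are secreted by liver and mesenchymal cells in response to IL-6-type cytokines and IL-1. Of these, 9 of 10 tested members were called higher and 0 lower, with a median log2 fold change of 4.83. *Saa3*, a serum amyloid A protein, was at 1.12, 3.19, 3.49 and 2.24 CPM in the 2W libraries and 343, 333, 122 and 148 CPM in the 3W libraries (log2 fold change 6.58 ± 0.48, adjusted p = 3.26e-05). In 3W-PSCs the values of replicates 1 and 2 stood well above those of replicates 3 and 4, and the lowest was still far above every 2W library. *Hp*, the haemoglobin-binding protein haptoglobin, had 2 counts in all 2W libraries together and 705 in all 3W libraries, a ratio of rates of 264 (95% counting interval 72.9 to 2186). *Lbp*, the lipopolysaccharide-binding protein, had 1 count and 261 counts, with a ratio of 196 (95% counting interval 34.8 to 7756), and *Serpina3g*, a serine protease inhibitor, 1 and 370 counts, with a ratio of 277 (95% counting interval 49.5 to 10984). These intervals cover counting error only. The gene *Sprr2e*, a small proline-rich protein of the cornified envelope, stood with them outside the lists, at 0, 0.737, 0 and 0 CPM and 44.2, 63, 11.4 and 10.1 CPM, with the higher 3W values again in replicates 1 and 2. Whether the counts of *Sprr2e* came from PSCs or from PCC left among the sorted cells was not tested.

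Complement genes were called in both directions. Over the list, 5 of 10 tested members were called higher and 1 lower, with a median log2 fold change of 0.50. *C3*, the central component, was at 0.42, 0.246, 0.159 and 1.12 CPM in the 2W libraries and 181, 179.6, 157 and 226 CPM in the 3W libraries (log2 fold change 8.48 ± 0.37, adjusted p = 7.79e-07), the smallest adjusted p of all genes. *C4b*, the other thioester component, had no count in any 2W library and 7.44 ± 3.0 CPM in 3W-PSCs, at least 14.1-fold higher when 2W-PSCs are set at 3 counts per library. *C1s*, a protease of the first component, rose from 29.95 ± 18.5 to 116 ± 4.36 CPM and *Serping1*, its inhibitor, from 0.778 ± 0.545 to 5.84 ± 1.69 CPM. Parts of the 3′ windows of *C1s* (14.9%, with *C1s2*) and *C4b* (14.6%, with *C4a*) match a close relative. *Cr1l*, the membrane regulator Crry that restrains complement on the cell's own surface, moved the other way, from 66.1 ± 21 to 34.8 ± 4.35 CPM, a call that ended in 6 of the 8 fits with a library left out (adjusted p up to 0.106, without 3W replicate 2).

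Chemokines recruit leukocytes through G protein-coupled receptors. Among CC chemokines 4 of 7 tested members were called higher and 1 lower, with a median log2 fold change of 3.40, and among CXC and CX3C chemokines 6 of 9 were called higher and 1 lower, with a median of 3.27, or 3.09 with *Cxcl11* at its lower bound. *Ccl2*, the monocyte attractant, was at 21.2, 8.1, 44.6 and 32.6 CPM and 1398, 1236, 1308 and 872 CPM (log2 fold change 5.49 ± 0.46, adjusted p = 5.81e-05), with the lowest values in 2W replicate 2 and 3W replicate 4. The ligands of the T cell receptor CXCR3 rose together: *Cxcl10* from 16.4 ± 9.83 to 359 ± 74.7 CPM and *Cxcl9* from 0.478 ± 0.552 to 5.53 ± 1.09 CPM. *Cxcl11* rose from no count to 3.64 ± 1.25 CPM, at least 6.89-fold. *Ccl8*, a monocyte attractant, rose from 0.984 ± 0.704 to 10.8 ± 3.76 CPM, and *Cxcl2*, a neutrophil attractant, from 0.329 ± 0.365 to 3.71 ± 1.66 CPM. *Cxcl12*, the homeostatic ligand of CXCR4, fell from 594 ± 37.6 to 349 ± 15 CPM, and *Ccl27a* from 6.4 ± 1.24 to 2.72 ± 0.45 CPM. *Ccl27a* shares 37% of its 3′ windows with *Ccl27b* and predicted copies, so its counts are uncertain. Leaving out 1 library ended the calls of *Cxcl9* in 1 of 8 (adjusted p up to 0.0509, without 3W replicate 1), *Cxcl2* in 1 of 8 (adjusted p up to 0.0511, without 3W replicate 4) and *Ccl27a* in 6 of 8 (adjusted p up to 0.122, without 3W replicate 2).

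Signalling genes that act upstream of, or feed back on, these secreted proteins had more calls higher than lower. In the NF-κB list of subunits and inhibitors, 10 of 15 tested members were called higher and 0 lower, with a median log2 fold change of 1.03, and in the list of TRAF adaptors and feedback genes 10 of 21 were called higher and none lower. *Bcl3*, an atypical nuclear IκB, rose from 2.18 ± 1.51 to 18 ± 1.6 CPM, and *Nfkbie*, IκBε, from 2.63 ± 1.35 to 9.47 ± 2.58 CPM. *Tnfaip3*, the ubiquitin-editing inhibitor A20, rose from 1.53 ± 1.04 to 24.3 ± 13.8 CPM. *Birc3*, an inhibitor of apoptosis bound to TRAF proteins, rose from 1.68 ± 1.57 to 12.4 ± 5.21 CPM. In the list of JAK kinases, STAT factors and SOCS inhibitors, 6 of 20 were called higher and none lower. *Stat3* was at 81.4, 54.8, 71.3 and 67.7 CPM and 248, 288, 186 and 227 CPM (log2 fold change 1.78 ± 0.19, adjusted p = 2.71e-04) without overlap. *Stat2* rose from 68.7 ± 7.82 to 157 ± 16.4 CPM and *Socs3*, the feedback inhibitor of gp130 signalling, from 16.5 ± 12.3 to 68 ± 8.98 CPM. Of the gp130 family 4 of 9 were called higher and 2 lower: *Osmr*, the oncostatin M receptor, rose from 7.77 ± 2.39 to 59.7 ± 15.6 CPM and *Lif* from 0.728 ± 0.702 to 9.18 ± 6.26 CPM. *Il11ra1*, the IL-11 receptor, fell from 175 ± 93.4 to 70.8 ± 13.3 CPM. *Il1rl1*, which encodes the IL-33 receptor ST2, rose from 4.07 ± 3.66 to 59.1 ± 16.8 CPM. In fits with 1 library left out there were 4 (without 3W replicate 1 or 3W replicate 2) to 11 (without 2W replicate 2) NF-κB subunits and inhibitors called higher and 5 (without 3W replicate 1 or 3W replicate 2) to 11 (without 2W replicate 2) TRAF adaptors and feedback genes called higher. *Il11ra1* shares 36.9% of its 3′ windows with *Il11ra2* and *Gm13305*, so its counts are uncertain. Calls that ended with a library left out were those of *Nfkbie* in 2 of 8 (adjusted p up to 0.0773, without 3W replicate 1), *Birc3* in 3 of 8 (adjusted p up to 0.0668, without 3W replicate 1), *Socs3* in 6 of 8 (adjusted p up to 0.116, without 2W replicate 4) and *Il11ra1* in 5 of 8 (adjusted p up to 0.0953, without 3W replicate 2).

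Of all lists, the interferon-stimulated one had the most members called higher. Of these antiviral genes, 35 of 43 tested members were called higher and 1 lower, with a median log2 fold change of 1.42. *Zbp1*, a sensor of Z-form nucleic acid, was at 3.5, 4.67, 5.87 and 13.3 CPM in the 2W libraries and 76, 85.2, 77.8 and 98.7 CPM in the 3W libraries (log2 fold change 3.61 ± 0.36, adjusted p = 1.79e-04). *Rsad2*, the antiviral protein viperin, rose from 16 ± 3.66 to 103 ± 19.9 CPM and *Oas2*, an oligoadenylate synthetase, from 1.45 ± 0.606 to 19.3 ± 1.48 CPM. Its relative *Oas3* had 5 counts in all 2W libraries and 260 in all 3W libraries, a ratio of 39 (95% counting interval 16.5 to 121). The exception was *Ifi27*, called lower at 259 ± 21.7 against 462 ± 142 CPM. Its lowest 2W library, replicate 2, lay within the range of the 3W libraries, and its call ended in 7 of the 8 fits with a library left out (adjusted p up to 0.121, without 3W replicate 2). Interferon-inducible GTPases, which act on intracellular pathogens, followed: 8 of 11 tested members were called higher and 0 lower, with a median log2 fold change of 1.88. *Gbp2* rose from 19.2 ± 2.17 to 138 ± 10.5 CPM (log2 fold change 2.84 ± 0.16, adjusted p = 5.78e-06) and *Iigp1* from 34.4 ± 16.6 to 199 ± 32.8 CPM. Of the interferon regulatory factors and receptors, 3 of 10 were called higher and none lower. *Irf7* rose from 56 ± 16.2 to 151 ± 23.8 CPM and *Irf1* from 72.2 ± 28.2 to 157 ± 10.5 CPM, the latter called in 3 of the 8 fits with a library left out (adjusted p up to 0.0791, without 3W replicate 2). Counts with 1 library left out were 2 to 6 (without 2W replicate 2) interferon regulatory factors and receptors called higher. *Casp4*, the caspase that senses intracellular lipopolysaccharide, rose from 5.01 ± 1.81 to 65.9 ± 13.2 CPM.

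Genes of MHC class I presentation, from proteasome and transporter to the surface chains, were called in one direction: 13 of 21 tested members were called higher and 0 lower, with a median log2 fold change of 1.77. For the heavy chain *H2-K1* the libraries were at 45.2, 20.9, 34.1 and 50.6 CPM and 405, 416, 360.1 and 460.1 CPM (log2 fold change 3.43 ± 0.26, adjusted p = 4.00e-05), with the 2W libraries all below the 3W libraries. *H2-D1* rose from 65.1 ± 25.5 to 473 ± 49.4 CPM, the peptide transporter subunit *Tap1* from 18.6 ± 2.88 to 71.6 ± 9.09 CPM. The immunoproteasome subunits *Psmb8* and *Psmb9* rose from 6.0 ± 1.79 to 47.1 ± 5.55 CPM and from 2.69 ± 1.69 to 25.4 ± 2.77 CPM. The trimming peptidase *Erap1* rose from 4.08 ± 1.85 to 14.2 ± 2.04 CPM and *Nlrc5*, the transactivator of these genes, from 0.38 ± 0.468 to 6.41 ± 2.61 CPM. The class I genes *H2-Q4* and *H2-Q7* came from at most 5 counts in all 2W libraries, and part of the 3′ sequence of the H2 genes named here is shared between family members, so counts of single members are uncertain. None of the 5 tested genes of MHC class II presentation and co-inhibition was called, against a share of 10.7% over all genes (by DESeq2 2 of 6 higher and 0 lower). *Cd74*, the invariant chain, was at 7.19 ± 3.65 against 2.17 ± 1.55 CPM (adjusted p = 0.0567, and 0.00423 without 2W replicate 2), and *Cd274*, the checkpoint ligand PD-L1, at 11.5 ± 4.76 against 7.01 ± 2.02 CPM (adjusted p = 0.218).

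Some called genes lay side by side by the rule given here, 42 of the 660 called higher and 30 of the 570 called lower. Taking runs of at least 5 called genes of the same direction, each within 500 kb of the next (a rule chosen after the values were seen and not tested), there were 7 runs of genes called higher. Each run starts and ends at a called gene, so the shares called within runs are set in part by the rule. The longest, on chr1:173468485-174031810 (GRCm38), held the interferon-inducible PYHIN family, DNA-binding proteins that include the AIM2-like sensors. Here 9 of 11 tested genes were called higher and none lower, with a median log2 fold change of 2.40. Among them *AI607873* rose from 3.72 ± 1.87 to 45.8 ± 7.0 CPM, *Ifi205* from 4.14 ± 1.4 to 22.3 ± 3.63 CPM and *Mndal* from 62.7 ± 7.93 to 167 ± 35.1 CPM. Members of the family resemble each other, and the share of 3′ windows that also match another member was 64.3% for *Mnda*, 41.1% for *Pyhin1* and 33.1% for *Ifi205*, so values of single members are uncertain. Within chr17:33909414-34216321, which contains *H2-K1*, *Tap1* and *Psmb8*, 7 of 19 were called higher. Within chr17:34728380-35443773, which contains *C4b* and *H2-D1*, 6 of 29. A further run surrounded *Cxcl9*, *Cxcl10* and *Cxcl11* on chr5:92052146-92365485 (5 of 9), another held the Schlafen genes and *Ccl5* on chr11:82802449-83530518 (5 of 12), and one held *Ch25h* with *Ifit1* and *Ifit3* on chr19:34290666-34650009 (5 of 9). Of the 6 runs of genes called lower, the one with the lowest median log2 fold change, -1.57, was the S100 cluster on chr3:90511034-90624181, where 5 of 6 tested genes were called lower, *S100a1*, *S100a13*, *S100a16*, *S100a4* and *S100a6*.

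Promoters of 4 genes with large rises are shown because they hold short motifs that are defined below. The first 4 genes with a motif match were *Saa3*, *Mmp13*, *Cxcl10* and *Mmp3*. The order is that of fold change among called genes without overlap and with a mean log2 CPM above 3. Of the genes in that order, *C3*, *Il1rl1*, *Casp4* and *H2-K1* had a promoter without a match to the exact letters of any motif. Other forms of these sites were not searched for, so a promoter without a match may still hold one. Others in that order had no promoter in the table, among them *Ccl7*, *Ccl2* and *Zbp1*. Each sequence runs 5′ to 3′ on the gene's own strand from 250 bases before to 50 after the start (RefSeq, GRCm38.p6); capitals mark GAAANNGAA (core of the interferon-stimulated response element), GGGANNTTC (κB) or TGANTCA (AP-1), on either strand.
Saa3 (chr7:46715627-46715926, minus strand): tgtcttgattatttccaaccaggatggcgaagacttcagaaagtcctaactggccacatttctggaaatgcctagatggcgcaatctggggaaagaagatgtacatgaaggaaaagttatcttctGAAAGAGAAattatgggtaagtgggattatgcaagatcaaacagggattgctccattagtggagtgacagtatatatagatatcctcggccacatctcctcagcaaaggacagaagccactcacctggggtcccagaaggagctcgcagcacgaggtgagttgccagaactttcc
Mmp13 (chr9:7272264-7272563, plus strand): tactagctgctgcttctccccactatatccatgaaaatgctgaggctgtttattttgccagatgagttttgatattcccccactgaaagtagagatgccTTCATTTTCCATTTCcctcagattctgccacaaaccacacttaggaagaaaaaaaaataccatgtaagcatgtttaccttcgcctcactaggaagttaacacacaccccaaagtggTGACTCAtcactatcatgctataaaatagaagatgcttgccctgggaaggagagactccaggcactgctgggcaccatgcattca
Cxcl10 (chr5:92348840-92349139, minus strand): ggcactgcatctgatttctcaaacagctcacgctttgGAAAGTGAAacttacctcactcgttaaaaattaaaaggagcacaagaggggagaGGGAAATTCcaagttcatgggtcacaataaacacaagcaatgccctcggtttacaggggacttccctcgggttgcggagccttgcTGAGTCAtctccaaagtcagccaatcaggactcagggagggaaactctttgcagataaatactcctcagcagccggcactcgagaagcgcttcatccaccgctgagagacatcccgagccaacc
Mmp3 (chr9:7445572-7445871, plus strand): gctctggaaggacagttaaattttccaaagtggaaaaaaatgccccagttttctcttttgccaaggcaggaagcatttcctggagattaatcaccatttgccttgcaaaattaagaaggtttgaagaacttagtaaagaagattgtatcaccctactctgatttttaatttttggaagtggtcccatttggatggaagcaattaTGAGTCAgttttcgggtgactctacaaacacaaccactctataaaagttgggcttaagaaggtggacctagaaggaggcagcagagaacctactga
*Cxcl10* held all 3, with the interferon motif starting 213 bases, the κB motif 159 bases and the AP-1 motif 74 bases before the start. *Mmp13* held 2 overlapping matches of the interferon motif and an AP-1 motif 35 bases before the start, and *Mmp3* an AP-1 motif 46 bases before it. A promoter in the table was matched for 490 of 660 genes called higher, 404 of 570 called lower and 8430 of all 11513 tested. The interferon motif was in 13.1% of promoters of genes called higher, 7.43% of those called lower and 7.09% of all tested (8.57% of all promoters in the table). The κB motif was in 6.12%, 4.21% and 3.58% (3.87% of all), AP-1 in 9.39%, 6.93% and 4.77% (7.93% of all), and the STAT motif TTCNNNGAA in 8.37%, 6.44% and 6.74% (8.47% of all). These shares are a description; no binding was measured.

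Proteases that cut matrix and their inhibitors moved in both directions. Over matrix metalloproteinases and inhibitors, 4 of 16 tested members were called higher and 2 lower, with a median log2 fold change of 0.24. The stromelysin *Mmp3* was at 3.64, 6.14, 5.56 and 8.31 CPM and 112, 128, 31.2 and 35.7 CPM (log2 fold change 3.7 ± 0.50, adjusted p = 0.00115). The collagenase *Mmp13* was at 0.841, 1.47, 2.86 and 1.76 CPM and 81, 101, 23.2 and 18.4 CPM (log2 fold change 5.0 ± 0.64, adjusted p = 8.40e-04). As with *Saa3*, 3W replicates 1 and 2 were the high ones for both, and no 3W library reached down to the 2W range. *Mmp10*, stromelysin 2, rose from 1.27 ± 0.694 to 20.7 ± 12.8 CPM and *Adamts7*, a metalloproteinase with thrombospondin repeats, from 5.29 ± 2.4 to 50.2 ± 15.1 CPM. *Timp1* rose from 101 ± 10.1 to 325 ± 75.7 CPM. *Timp3*, the matrix-bound inhibitor, fell from 999 ± 309.7 to 460.0 ± 93.3 CPM and the aggrecanase *Adamts1* from 363 ± 131 to 103 ± 33.2 CPM. The annotated exons of *Timp3* overlap those of *Syn3* on the opposite strand by 1733 bases, and no source used here states whether counting took strand into account. Leaving out 1 library at a time gave 4 to 7 (without 2W replicate 2) metalloproteinases and inhibitors called higher and 1 (without 3W replicate 1 or 3W replicate 2) to 5 (without 2W replicate 2) metalloproteinases and inhibitors called lower. Without 3W replicate 2 the call of *Timp3* ended (adjusted p = 0.0598), as it did without 3W replicate 1.

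Several lists of enzymes and transporters had members called higher. Some of these lists also had members called lower. Of prostaglandin genes 2 of 10 were called higher and 1 lower, of those for nitric oxide, itaconate and superoxide 6 of 10 were called higher and 2 lower, of metallothioneins and zinc transporters 2 of 15 were called higher and 0 lower. Of oxysterol and cholesterol export 2 of 9 were called higher and 0 lower, and of hyaluronan 3 of 8 were called higher and 0 lower. The 6 called higher for nitric oxide, itaconate and superoxide include *Cybb*, which is also 1 of the macrophage markers. *Ptgs2*, cyclooxygenase 2, rose from 8.02 ± 4.12 to 28.7 ± 10.5 CPM and *Ptges*, the prostaglandin E synthase, from 5.15 ± 1.86 to 21.6 ± 6.52 CPM. *Ptgis*, the prostacyclin synthase, fell from 102 ± 24 to 56 ± 2.47 CPM. *Irg1*, which makes itaconate, had no count in any 2W library and 4.92 ± 4.05 CPM in 3W-PSCs, at least 9.32-fold higher. Whether these counts of *Irg1* came from PSCs or from MØ left among the sorted cells was not tested. *Sod3*, the extracellular superoxide dismutase, rose from 10.4 ± 2.31 to 54.7 ± 9.47 CPM. *Ch25h*, the cholesterol 25-hydroxylase, rose from 0.268 ± 0.374 to 32.8 ± 20.4 CPM and *Abca1*, the cholesterol exporter, from 5.62 ± 1.74 to 31.6 ± 7.9 CPM. *Mt2*, a metal-binding metallothionein, was at 56.6, 42.7, 68.7 and 61.5 CPM and 596, 709.8, 339.5 and 346 CPM (log2 fold change 3.11 ± 0.28, adjusted p = 1.05e-04). *Slc39a14*, a zinc importer, rose from 9.16 ± 0.704 to 25.6 ± 6.52 CPM. *Cd44*, the hyaluronan receptor, rose from 109 ± 52.4 to 328 ± 37.8 CPM and *Vcam1*, the ligand of leukocyte integrin VLA-4, from 144 ± 28.3 to 684 ± 52 CPM (log2 fold change 2.24 ± 0.18, adjusted p = 5.71e-05). In fits with 1 library left out there were none (without 3W replicate 1, 3W replicate 2, 2W replicate 4 or 3W replicate 4) to 2 nitric oxide, itaconate and superoxide genes called lower. Calls that ended with a library left out were *Ptgs2* in 1 of 8 (adjusted p up to 0.0513, without 3W replicate 1) and *Ptgis* in 4 of 8 (adjusted p up to 0.0578, without 3W replicate 1).

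Part of the contractile genes of smooth muscle was called lower. Of the list, 2 of 20 tested members were called higher and 8 lower, with a median log2 fold change of -0.36. *Acta2*, α-smooth muscle actin, was at 677, 663, 603 and 515 CPM in the 2W libraries and 100.3, 86.8, 124 and 111 CPM in the 3W libraries (log2 fold change -2.55 ± 0.18, adjusted p = 2.69e-05). The mono-PSC libraries were at 157, 191, 93.1 and 118 CPM. *Tagln*, the actin-binding transgelin, was at 63.6, 129, 47.1 and 60.5 CPM in the 2W libraries and 11.3, 9.98, 11.2 and 5.71 CPM in the 3W libraries (log2 fold change -2.97 ± 0.35, adjusted p = 4.73e-04), and at 10.6, 20.4, 9.18 and 6.13 CPM in mono-PSCs. For both genes the 2W libraries were the high ones, and the 3W and mono-PSC libraries lay in overlapping ranges that were not tested against each other. *Myl9*, the myosin light chain, fell from 114 ± 70.3 to 17.7 ± 2.07 CPM and *Tpm2*, β-tropomyosin, from 406 ± 128 to 154 ± 9.55 CPM. *Actn1*, α-actinin of adhesions and stress fibres, rose from 317 ± 81 to 588 ± 55.8 CPM; its call ended in 4 of the 8 fits with a library left out (adjusted p up to 0.07, without 2W replicate 4). Counts with 1 library left out were none (without 3W replicate 1, 3W replicate 2, 3W replicate 3 or 2W replicate 4) to 3 (without 2W replicate 2) contractile genes called higher. The exons of *Tagln* overlap those of neighbouring genes on the opposite strand by 1349 bases. None of the 15 tested genes of the list of YAP and TAZ with their targets was called by edgeR (1 of 16 higher and 0 lower by DESeq2; with 1 library left out 0 to 1 were called higher), and *Axl* was at 475 ± 44.2 against 397 ± 89.5 CPM (adjusted p = 0.419).

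Some collagen chains and small proteoglycans were called lower, and none higher. Of the collagen chains, 0 of 21 tested members were called higher and 7 lower, with a median log2 fold change of -0.50. Of these, 4 to 10 were called lower with 1 library left out, the fewest without 3W replicate 1 and the most without 2W replicate 2. *Col3a1*, of type III collagen, fell from 454 ± 117 to 136 ± 5.93 CPM, *Col11a1*, a fibril-nucleating chain, from 123 ± 58.3 to 22.7 ± 4.08 CPM, and *Col6a2* from 145 ± 21.6 to 59.2 ± 16.2 CPM. Of the small leucine-rich proteoglycans, which bind collagen fibrils and growth factors, 0 of 8 tested members were called higher and 4 lower, with a median log2 fold change of -0.77. *Aspn*, asporin, was at 49.2, 45.2, 46.2 and 35.9 CPM and 0.664, 0.348, 1.14 and 0.519 CPM (log2 fold change -6.02 ± 0.32, adjusted p = 4.17e-06), and every 3W library had less than 2 CPM. *Ogn* fell from 126 ± 45.7 to 16 ± 6.28 CPM and *Prelp* from 17.9 ± 4.09 to 4.29 ± 1.93 CPM. Of matricellular and elastic fibre genes 2 of 22 were called higher and 4 lower: *Fbln5*, an elastic fibre protein, fell from 207 ± 11.3 to 66.5 ± 22 CPM and *Mgp*, the matrix Gla protein, from 64.3 ± 31.3 to 12.9 ± 3.02 CPM. Against this direction, *Spp1*, osteopontin, rose from 389 ± 154 to 998 ± 124 CPM and the provisional matrix proteoglycan *Vcan* from 30.2 ± 6.2 to 65.5 ± 5.08 CPM. Enzymes that hydroxylate and cross-link collagen had 0 called higher and 2 lower of 20. *Lox* was at 405 ± 37.5 against 666 ± 149 CPM and *Pcolce* at 483 ± 77.1 against 959 ± 419 CPM. Leaving out 1 library at a time gave 2 to 5 (without 2W replicate 2) matricellular and elastic fibre genes called higher, 2 (without 3W replicate 3 or 3W replicate 4) to 5 (without 2W replicate 2) matricellular and elastic fibre genes called lower and none (without 3W replicate 1, 3W replicate 2, 3W replicate 3 or 2W replicate 4) to 4 (without 2W replicate 2) collagen enzymes called lower. Both calls ended with a library left out, that of *Lox* in 5 of 8 (adjusted p up to 0.11, without 3W replicate 2) and *Pcolce* in 5 of 8 (adjusted p up to 0.133, without 3W replicate 2).

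Secreted growth and patterning factors moved in both directions. *Bmp4* was at 67.2, 124, 71.1 and 97.1 CPM in the 2W libraries and 15.1, 13.5, 16.7 and 23.7 CPM in the 3W libraries (log2 fold change -2.38 ± 0.26, adjusted p = 2.96e-04). Its secreted antagonist *Grem1* rose from 264 ± 44.7 to 559.9 ± 97.9 CPM. *Id2*, an inhibitor of bHLH factors that BMP signalling induces, fell from 495 ± 59.6 to 258 ± 55.7 CPM, a call that ended without 3W replicate 2 (adjusted p = 0.0533). Over the BMP list, 3 of 18 tested members were called higher and 4 lower, with a median log2 fold change of 0.11, and over the IGF list 0 of 9 were called higher and 3 lower. *Igf1* was at 66.5, 61.9, 42.2 and 61.3 CPM and 9.17, 11.1, 12.2 and 13.4 CPM (log2 fold change -2.34 ± 0.21, adjusted p = 1.05e-04). Its binding proteins *Igfbp4* and *Igfbp6* fell from 105 ± 18.1 to 50.2 ± 2.56 CPM and from 57.4 ± 13.8 to 18.7 ± 6.54 CPM. In the TGF-β list, 5 of 25 tested members were called higher and 1 lower, with a median log2 fold change of 0.25: *Ltbp2*, a latent TGF-β-binding protein, rose from 10.5 ± 4.62 to 67 ± 17.9 CPM and *Lrrc32*, the surface anchor of latent TGF-β, from 10.3 ± 4.44 to 39.9 ± 5.84 CPM. The ligand *Tgfb2* fell from 35.8 ± 8.86 to 15.6 ± 2.26 CPM. *Angpt1*, the ligand of the endothelial receptor TIE2, rose from 1.07 ± 0.445 to 8.89 ± 3.67 CPM. *Dlk1*, a non-canonical Notch ligand, fell from 25.7 ± 9.67 to 4.78 ± 1.27 CPM. In fits with 1 library left out there were 3 (without 2W replicate 1, 3W replicate 1, 3W replicate 2, 3W replicate 3 or 2W replicate 4) to 8 (without 2W replicate 2) TGF-β genes called higher and 2 (without 3W replicate 1 or 3W replicate 2) to 4 BMP genes called lower.

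Surface and identity genes of stellate cells and fibroblasts split. On the list of surface genes, 4 of 14 tested members were called higher and 6 lower, with a median log2 fold change of -0.48. *Ly6a*, the surface protein SCA-1, rose from 34.2 ± 6.23 to 199 ± 49 CPM, the receptor *Pdgfra* from 14.4 ± 2.88 to 34.6 ± 6.14 CPM and podoplanin, *Pdpn*, from 183 ± 64.6 to 368 ± 80.9 CPM. *Cygb*, cytoglobin, a marker of quiescent and activated stellate cells, fell from 270.4 ± 168 to 37.1 ± 8.22 CPM. *Fap*, fibroblast activation protein, fell from 4.94 ± 1.36 to 0.328 ± 0.315 CPM and *Mcam*, a pericyte adhesion molecule, from 10.9 ± 3.38 to 2.91 ± 0.967 CPM. *Fap* had only 5, 0, 1 and 4 counts in 3W replicates 1 to 4. Mono-PSCs, which were not tested, had means of 0.307 CPM for *Fap*, 6.80 CPM for *Pdgfra* and 199 CPM for *Pdpn*. *Dhrs3*, a reductase that returns retinaldehyde to retinol, fell from 125 ± 22.1 to 29.4 ± 13.4 CPM. Counts with 1 library left out were 3 (without 3W replicate 1, 3W replicate 2, 3W replicate 3 or 2W replicate 4) to 6 surface genes called lower. Leaving out a library ended the call of *Pdpn* in 5 of 8 fits (adjusted p up to 0.103, without 3W replicate 2) and of none of the other 6 genes.

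Transcription factors of the mesenchymal list had 4 of 21 called higher and none lower. *Hmga2*, a chromatin architectural protein, was at 297, 306, 225 and 245 CPM and 914, 987, 571 and 635 CPM (log2 fold change 1.53 ± 0.22, adjusted p = 0.00144), with 3W replicates 1 and 2 above replicates 3 and 4. *Prrx1*, a homeobox factor of mesenchyme, rose from 122 ± 10.2 to 217 ± 19.99 CPM. Reads of *Hmga1*, which also rose from 1.46 ± 0.608 to 22.3 ± 11.3 CPM, could come from *Hmga1b*, with which it shares 59.3% of its 3′ windows. Within AP-1 and early genes 3 of 21 were called higher and 1 lower: *Fosl1* rose from 13.6 ± 5.89 to 64.2 ± 12.7 CPM and *Fosl2* from 33.2 ± 12.6 to 92.9 ± 5.44 CPM. *Junb* was at 574 ± 112 against 232 ± 114 CPM and *Fos* at 40.3 ± 21.5 against 92.8 ± 15.5 CPM. Leaving out 1 library at a time gave 3 to 8 (without 2W replicate 2) mesenchymal factors called higher, none to 2 (without 2W replicate 2) mesenchymal factors called lower and 2 to 5 (without 2W replicate 2) AP-1 and early genes called higher. The calls ended for *Junb* in 6 of 8 (adjusted p up to 0.124, without 3W replicate 3) and *Fos* in 5 of 8 (adjusted p up to 0.118, without 3W replicate 1).

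Metabolic genes were called at modest size. Of the glycolysis list, 4 of 21 tested members were called higher and 0 lower, with a median log2 fold change of 0.48. The glucose transporter *Slc2a1* rose from 36.2 ± 6.06 to 86.7 ± 6.69 CPM and hexokinase 2, *Hk2*, from 42.4 ± 6.91 to 119.5 ± 19.98 CPM. Calls among nuclear-encoded respiratory chain subunits went the other way, and 0 of 72 tested members were called higher and 25 lower, with a median log2 fold change of -0.42. *Uqcr10*, a subunit of complex III, was at 284, 528, 398 and 405 CPM and 157, 158, 186 and 159.5 CPM (log2 fold change -1.29 ± 0.20, adjusted p = 0.00243), without overlap between the cultures. The 7 tested protein genes of the mitochondrial genome, in contrast, had 2 called higher and none lower, with a median of 0.76: *mt-Nd1* was at 3482 ± 312 against 1903 ± 545 CPM and *mt-Nd2* at 8045 ± 275 against 4728 ± 1225 CPM. With a library left out the calls ended for *mt-Nd1* in 5 of 8 (adjusted p up to 0.0969, without 3W replicate 2) and *mt-Nd2* in 6 of 8 (adjusted p up to 0.119, without 2W replicate 4). Cytosolic ribosomal proteins had 0 called higher and 2 lower of 80 (median -0.22). *Rps14* was at 2536 ± 137 against 5019 ± 1387 CPM, a call that ended in 2 of the 8 fits with a library left out (adjusted p up to 0.0633, without 3W replicate 2). Constitutive proteasome subunits had 5 of 31 lower, and genes of cholesterol synthesis 3 of 26. In fits with 1 library left out there were 2 (without 3W replicate 1, 3W replicate 2, 3W replicate 3 or 2W replicate 4) to 9 (without 2W replicate 2) glycolysis genes called higher, 10 (without 3W replicate 2) to 41 (without 2W replicate 2) respiratory chain genes called lower and none (without 3W replicate 1, 3W replicate 2, 2W replicate 4 or 3W replicate 4) to 4 (without 2W replicate 2) mitochondrially encoded genes called higher. Counts with 1 library left out were none (without 3W replicate 1 or 3W replicate 2) to 21 (without 2W replicate 2) ribosomal genes called lower, 1 (without 3W replicate 2, 3W replicate 3, 2W replicate 4 or 3W replicate 4) to 11 (without 2W replicate 2) proteasome genes called lower and none (without 3W replicate 2) to 11 (without 2W replicate 2) cholesterol synthesis genes called lower.

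Beside these lists stands a relation of the calls to transcript length. Where the median annotated transcript of a gene was at most 500 bases, 4.08% of tested genes were called higher and 8.16% lower. Where it was over 5000 bases, 13% were called higher and 2.03% lower, and the classes between had 4.01% to 9.08% higher and 2.08% to 6.93% lower. The median length was 1930 bases for genes called higher, 908.5 bases for genes called lower and 1357 bases for all tested. The mean log2(CPM + 0.5) of the 4480 genes of at most 1000 bases, minus that of the 1788 genes over 3000 bases, was 0.481, 0.397, 0.454 and 0.424 in 3W replicates 1 to 4 and 0.63, 0.616, 0.845 and 0.69 in 2W replicates 1 to 4, without overlap (two-sided exact permutation, p = 0.0286; an index chosen after the data were seen). In the mono-PSC libraries it was 0.556, 0.869, 0.982 and 0.665. The respiratory chain list had a median length of 631 bases, the ribosomal list 630.2 bases and the proteasome list 850.5 bases. Among genes of at most 1000 bases, 22 of 64 respiratory chain genes (34.4%) were called lower, against 7.05% of all 4480 tested genes of that length. The ribosomal genes of that length had 2 of 76 (2.63%) called lower. The share of counts from mitochondrially encoded genes was also higher in 3W-PSCs, at 7.39% to 8.19% against 3.93% to 7.38% (exact permutation test, p = 0.0286). The part of transcript length and of the mitochondrial share in these results was not tested.

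**Figure D4:**
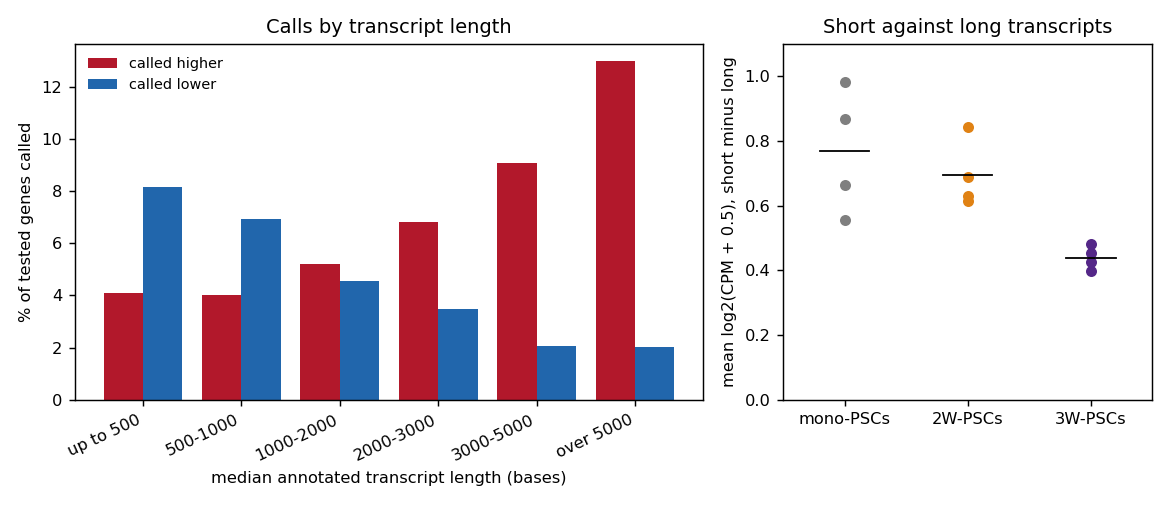
Left, the share of tested genes called higher (red) or lower (blue) in 3W-PSCs by the median length of their annotated transcripts: the blue share falls from 8.16% to 2.03% and the red share rises from 4.08% to 13% from the shortest to the longest class. Right, the mean log2(CPM + 0.5) of short minus long genes in each library (dots) with culture means (bars): the 3W libraries lie between 0.397 and 0.481, below all 2W libraries.

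Markers of the other cells in these cultures were counted, since the PSCs were sorted from mixtures. The summed level of 26 macrophage markers ran from 6.16 to 13 CPM over 2W libraries and from 30.9 to 92.4 CPM over 3W libraries, where 3W replicate 4 was the highest. Of these 26 markers, 15 had no count in any 2W library and 2 (*Lyz1* and *Emr1*, the gene of F4/80) had none in any 3W library. *Laptm5*, a lysosomal protein of leukocytes, had 1, 1, 6 and 75 counts in 3W replicates 1 to 4. *Lyz2*, lysozyme of myeloid cells, had 37, 7, 9 and 107 counts in 3W replicates 1 to 4. In contrast *Cybb*, the NADPH oxidase subunit of phagocytes, had 63, 73, 32 and 33 counts in the 3W libraries and none in the 2W libraries. *Mpeg1*, perforin 2, rose from 0.469 ± 0.558 to 6.98 ± 2.49 CPM and *Cd53*, a leukocyte tetraspanin, from 0.968 ± 0.0153 to 5.37 ± 1.29 CPM. These were the 3 macrophage markers called higher of 7 tested. Their part in the other results was not tested. Without 3W replicate 4, 667 genes were called (405 higher, 262 lower), and of the interferon-stimulated list 29 of 43 were called higher and of the acute-phase list 8. In that library *Saa3* was at 148 CPM, below 2 of the other 3W libraries, and *C3* at 226 CPM, the highest of the 4. Epithelial markers summed to 163 to 262 CPM (2W) and 173 to 196 CPM (3W; exact permutation test, p = 0.886), and none of 8 tested was called. A large part of this sum was *Sox9*, at means of 87.9 CPM (2W), 109 CPM (3W) and 103 CPM (mono-PSCs). The sum therefore does not measure cancer cells alone and cannot compare their share between cultures. Of the 8 tested markers, 5 had a log2 fold change below 0, among them *Krt7* (20.9 CPM in 2W, 10.9 CPM in 3W), and 3 above 0. *Krt18*, keratin 18, was at 23.2 ± 6.73 against 37.3 ± 10.5 CPM and at 0.0946 ± 0.109 CPM in mono-PSCs. None of 14 fibroblast markers was at 0 in all libraries of a culture, with a summed level of 14776 to 22115 CPM (2W) and 8626 to 10328 CPM (3W), and 2 of 13 tested were called higher and 7 lower. Of the endothelial list 1 of 9 genes was tested, *Kdr*, called higher at 4.15 ± 1.06 against 0.859 ± 0.762 CPM with its call ended in 7 of the 8 fits with a library left out (adjusted p up to 0.131, without 3W replicate 2), and of the lymphocyte list 1 of 10, not called. Of 14 housekeeping genes, *B2m* alone was called. Leaving out 1 library at a time gave 3 to 5 (without 2W replicate 2) macrophage markers called higher, none to 2 (without 2W replicate 2) epithelial markers called lower and 1 to 4 (without 2W replicate 3) housekeeping genes called higher.

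The number of calls depended on which libraries entered the fit. It was 497 (330 higher, 167 lower) without 3W replicate 2 and 2107 (1098 higher, 1009 lower) without 2W replicate 2, and it stayed between these for the other 6. No gene of the 1230 changed direction in any of these fits. Within 3W-PSCs, replicates 1 and 2 were the closest pair (Spearman correlation 0.987, against 0.972 to 0.981 for the other 5 pairs). The correlations used the 11776 genes that passed the filter on all 12 libraries. Replicates 1 and 2 also held the higher levels of *Saa3*, *Mmp3*, *Mmp13*, *Mt2* and *Hmga2*.

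**Figure D5:**
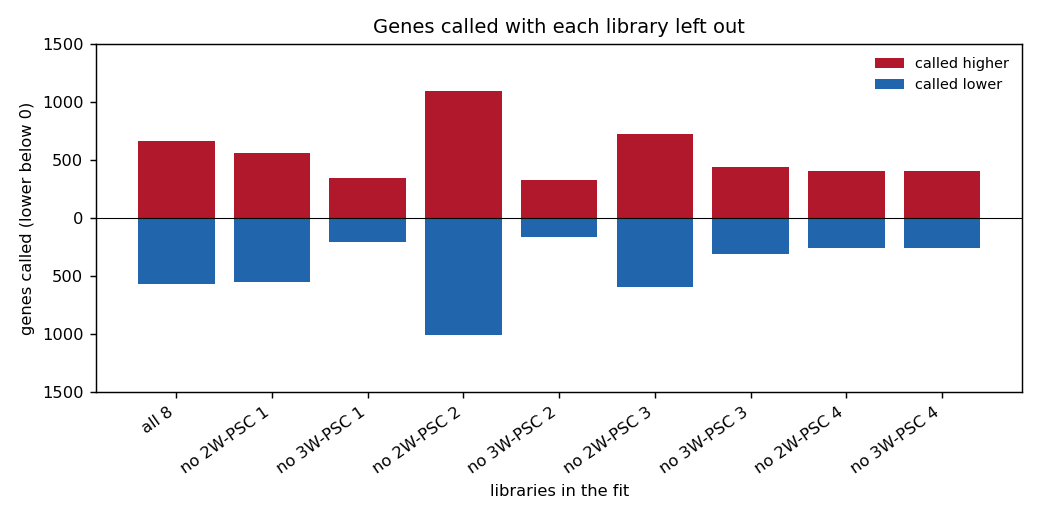
Bars give the genes called higher (red, above 0) and lower (blue, below 0) in 3W-PSCs with all 8 libraries and with each library left out in turn. The highest pair of bars, 1098 and 1009, is without 2W replicate 2, and the lowest, 330 and 167, without 3W replicate 2.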

How the data were processed

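RNA of sorted PSCs was sequenced as 75-base single reads with the QuantSeq 3′ method. The authors mapped reads with STAR to GRCm38 and deposited whole-number counts per Ensembl gene from featureCounts (tools and build also per the labels), and whether counting used strand or molecular identifiers is not given in the sources used here. All columns matched a sample by the title quoted in its label. Genes were filtered with filterByExpr on the 8 libraries, scaled by TMM and tested with edgeR 4.0.16 (glmQLFit and glmQLFTest, R 4.3.3), without a replicate block. The SE of a fold change is its size divided by the square root of F. Alternatives used DESeq2 1.42.0, limma 3.58.1 (voom), other filters and scalings, all 12 libraries, and each library left out. Depth limited precision most for genes of few counts, where a floor of 3 counts per library or a 95% counting interval is given. Coordinates are those of GENCODE vM21 (GRCm38).

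The comparison and the gene lists were chosen with earlier results of these data known. Genes were named by rule. In each direction these were the 15 called genes without overlap between the cultures with the largest fold change above a mean log2 CPM of 3. The 8 called genes without overlap with the largest change in CPM were also named. Further genes were up to 4 called members of each list and those against its direction. The rest were the 5 highest in one culture with at most 3 counts in the other, and marker genes. *Erap1*, *H2-D1*, *Psmb8*, *Psmb9*, *Tap1*, *Timp1*, *Tpm2* and the genes of the chromosomal runs fall outside this rule and were named after their values were seen. The scripts were tested on simulated counts. Some items are not reported here.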

Additional observations from a re-analysis of the deposited data

Results flagged for a closer look

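Among 329 sets of 4 values (each named gene and library measure in each culture), 20 (6.08%) held a library far from its 3 neighbours by Dixon's test at its 95% critical value; chance gives about 1 in 20. For library measures these were the number of genes with at least 10 counts in 3W replicate 2 (11741, others 11634 to 11647), the summed macrophage markers in 3W replicate 4 (92.4 CPM, others 30.9 to 39.2 CPM) and the median correlation of 3W replicate 3 with its culture (0.973, others 0.980 to 0.981).

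In 2W-PSCs 7 of the sets stood out through replicate 2. It was high for *Cygb* (521 CPM, others 168 to 204 CPM), *Bcl3* (4.42 CPM, others 1.26 to 1.76 CPM), *Tap1* (22.8 CPM, others 16.7 to 17.4 CPM) and *Sprr2e* (0.737 CPM, others 0 CPM). It was low for *Mgp* (17.4 CPM, others 79.2 to 80.3 CPM), *Lrrc32* (3.68 CPM, others 12.3 to 13 CPM) and *Dlk1* (11.3 CPM, others 29.5 to 31.6 CPM). The other 2W sets were *Krt18* in replicate 4 (52.9 CPM, others 30.6 to 33.8 CPM), *Ifi204* in replicate 1 (58.1 CPM, others 66.8 to 68.4 CPM), *Serpina3g* in replicate 1 (0.140 CPM, others 0 CPM) and *Lbp* in replicate 3 (0.159 CPM, others 0 CPM).

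In 3W-PSCs replicate 4 was high for *Iigp1* (248 CPM, others 177 to 187 CPM) and *S100a16* (17.4 CPM, others 12.1 to 12.3 CPM) and low for *Pyhin1* (3.11 CPM, others 5.18 to 5.47 CPM). *Uqcr10* was high in replicate 3 (186 CPM, others 157 to 159.5 CPM), *Dlk1* low in replicate 2 (2.90 CPM, others 5.19 to 5.60 CPM), and *Fgf18* had counts in replicate 1 only (0.664 CPM, others 0 CPM).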

How the results depend on the processing

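The 1230 calls (660 higher, 570 lower) were 1211 with DESeq2's size factors in edgeR, 1201 without a filter, 1172 with at least 10 counts in every library, 1281 with voom, 1277 with all 12 libraries in one fit, 1108 with thinned libraries and 1226 without *Gm26924* and the mitochondrial rRNA genes. DESeq2 called 1808, with 911 higher and 897 lower, and a test against a log2 fold change of 1 (glmTreat) 132, with 110 higher and 22 lower, because it asks for more than a difference from 0. With 1 library left out the calls ran from 497 to 2107, from 330 to 1098 higher and from 167 to 1009 lower; they were 550 without 3W replicate 1, 497 without 3W replicate 2, 750 without 3W replicate 3, 667 without 3W replicate 4, 666 without 2W replicate 4 and 2107 without 2W replicate 2, of which 1228 were among the 1230. The cause was not tested. Without both 2W replicate 2 and 3W replicate 4, a setting chosen after seeing the data, 1591 were called (860 higher, 731 lower). No called gene changed sign in any setting. Genes called higher made up 53.7% of the calls, 66.4% without 3W replicate 2 and 83.3% under glmTreat.

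With the replicate number as a block, 752 genes were called (455 higher, 297 lower), 725 of them among the 1230. Deviations of same-numbered libraries correlated at 0.0861, -0.0475, 0.0361 and 0.158 for numbers 1 to 4, and 1 of 4 2W libraries and 2 of 4 3W libraries correlated best with its own number. Correlations of this size, from 4 libraries per culture, cannot show whether same-numbered libraries shared a day or set-up.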

Other observations

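Other gene groups, not described above, changed in part. Of integrins and adhesion molecules 1 of 20 were called higher and 6 lower, the latter led by *Itga11*, the collagen-binding integrin α11 of fibroblasts, which fell from 4.11 ± 0.701 to 0.508 ± 0.533 CPM, and *Itgb3*, the β3 chain of the vitronectin receptor, from 9.95 ± 5.97 to 1.8 ± 1.27 CPM. Of antioxidant and iron genes 2 of 26 were called higher and 5 lower: *Slc40a1*, the iron exporter ferroportin, fell from 13.1 ± 2.46 to 2.88 ± 0.621 CPM, and *Slc7a11*, the cystine importer, was higher at 56.2 ± 14.5 against 25.8 ± 6.87 CPM. Of genes of the unfolded protein response 1 of 24 were called higher and 5 lower, with *Ddit3*, the stress factor CHOP, at 366 ± 68 against 774 ± 315 CPM. Of growth factors 5 of 26 were called higher and 2 lower; *Vegfc*, a lymphangiogenic factor, rose from 2.76 ± 0.974 to 9.63 ± 4.23 CPM and *Fgf18* fell from 3.02 ± 0.95 to 0.166 ± 0.332 CPM. In fits with 1 library left out there were 2 (without 3W replicate 2) to 7 (without 2W replicate 2 or 2W replicate 3) adhesion genes called lower, none (without 3W replicate 1 or 3W replicate 2) to 6 (without 2W replicate 2) antioxidant and iron genes called higher, 2 (without 3W replicate 1) to 7 (without 2W replicate 2) antioxidant and iron genes called lower, none (without 3W replicate 2) to 6 (without 2W replicate 2) unfolded protein response genes called lower and 2 (without 3W replicate 1) to 8 (without 2W replicate 2) growth factors called higher. Calls ended for *Itga11* in 1 of 8 (adjusted p up to 0.0577, without 3W replicate 2), *Itgb3* in 2 of 8 (adjusted p up to 0.0663, without 3W replicate 2), *Slc7a11* in 3 of 8 (adjusted p up to 0.0725, without 3W replicate 2), *Ddit3* in 4 of 8 (adjusted p up to 0.1, without 3W replicate 2), *Vegfc* in 3 of 8 (adjusted p up to 0.0865, without 3W replicate 2) and *Fgf18* in 3 of 8 (adjusted p up to 0.0682, without 3W replicate 2).

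Of cell cycle genes 2 of 40 were called higher and 3 lower, with *Cdkn1a* higher. Of Wnt genes 0 of 13 were called higher and 1 lower: *Dkk3*, a member of the dickkopf family, fell from 30.9 ± 6.62 to 10.4 ± 2.31 CPM. Of basement membrane genes 1 of 9 were called higher and 0 lower, *Agrn*, the heparan sulphate proteoglycan agrin, from 16.7 ± 4.22 to 39.2 ± 9.14 CPM, and of lysosomal genes 1 of 23 were called higher and 0 lower, *Ctsb*, cathepsin B, from 197 ± 38.1 to 373 ± 24.3 CPM. Counts with 1 library left out were 1 (without 3W replicate 2 or 3W replicate 4) to 5 (without 2W replicate 3) cell cycle genes called higher, 1 (without 3W replicate 1, 3W replicate 2, 3W replicate 3, 2W replicate 4 or 3W replicate 4) to 6 (without 2W replicate 2) cell cycle genes called lower, 1 to 3 (without 2W replicate 2) basement membrane genes called higher, none to 2 (without 2W replicate 2) basement membrane genes called lower and 1 to 3 (without 2W replicate 3) lysosomal genes called higher. Over all genes tested, 5.73% were called higher and 4.95% lower.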
